A study of Mus musculus with 8 samples.

Results

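The genes described are those of the core spliceosome and the SR proteins in mouse 2-cell embryos. They were taken by name: every protein-coding gene whose symbol begins with Snrp, Prpf, U2af1 or U2af2, or with Sf3a, Sf3b or Srsf and a number, or is Lsm1 to Lsm8, leaving out pseudogenes. The rule itself used no measured value, but it was set with earlier results of these data known. It took 56 annotated genes, of which 55 were among the 37310 genes of the deposited table, and Snrpn was not analysed here. A total of 52 reached 1 FPKM in at least 4 of the 8 libraries and were tested. Sf3a2, Prpf40b and Srsf12 did not. FPKM counts fragments relative to transcript length (per kilobase) and to the total of the library, so levels can be set side by side between genes.

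Polyadenylated RNA was measured in 4 libraries of control embryos, grown from fertilized eggs in G1 medium with the solvent DMSO, and in 4 libraries of embryos grown in the same medium with 6 µM triclocarban, an antibacterial compound of soaps and other care products. No strain, parental genotype, hour of collection, number of embryos per library or batch is stated. These 8 libraries include none at the lower doses that the culture protocol names. The protocols describe both a preparation from bulk RNA and a preamplification of cDNA, without saying which was used. Nothing in the labels ties a library to its own culture or litter. A p-value therefore reflects how far these 8 libraries scatter, and that scatter may be technical. The comparison addressed how exposure changes the RNA of the embryo during the passage from maternal to embryonic transcripts.

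The spliceosome removes introns from new transcripts. It is built from small nuclear ribonucleoproteins (snRNPs), each a small nuclear RNA with a ring of Sm or LSm proteins and its own set of further proteins: U1 reads the start of an intron, U2AF and U2 with its SF3 complexes read its end and the branch site, and the tri-snRNP of U4, U6 and U5 then brings in the catalytic core. SR proteins bind exons through an RNA recognition motif and recruit these parts through a domain rich in arginine and serine. In the 2-cell mouse embryo the stored RNA of the oocyte is being cleared while the embryo's own genome is switched on, and transcripts of splicing factors can come from either source.

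Sums of FPKM ran from 477882 to 605986 per library, and the depth, estimated roughly from the smallest values, from 6900000 to 14800000 fragments, lowest in triclocarban library 2. From 12828 to 13541 genes reached 1 FPKM in the controls and 11788 to 11957 with triclocarban, and mitochondrial genes held 16.6 to 24.3% and 11.1 to 17.6% of the FPKM. The part of these differences in the results was not tested. All 9 oocyte and 2-cell markers in the table were above 1 FPKM in every library. Their summed FPKM was 1935 to 3909 in the controls and 4455 to 5607 with triclocarban. Of these markers, 4 were called higher (Ooep, Bmp15, Nlrp5 and Oosp1) and 2 lower (Zp3 and Zfp352). In 8 of the 9, controls 3 and 4 both lay below controls 1 and 2. Of 10 cumulus and granulosa markers, 7 were below the filter and Amh was listed at 0 throughout, while the means of Cyp19a1 (2.34 against 8.33) and Fshr (0.921 against 3.04) were higher and that of Tnfaip6 (3.30 against 0.331) lower with triclocarban. Of the blood markers, Hbb-bs and Hbb-bt were listed at 0, and Hba-a1 (52.9 against 17.8) and Hba-a2 (24.9 against 4.67) were lower. The summed FPKM of the cumulus and granulosa markers was 4.69 to 9.30 in the controls and 9.02 to 17.8 with triclocarban, and that of the blood markers 54.3 to 96.0 and 8.55 to 32.7. Of 6 markers of blastocyst lineages, 4 were below the filter and the other two did not pass the test. The part of these markers and cell types in the results was also not tested. The control libraries lay in pairs: across all tested genes, the deviations from the group mean correlated at 0.626 between controls 1 and 2 and at 0.593 between controls 3 and 4, but at -0.828 to -0.769 across the pairs. Such deviations lean towards negative correlation by construction. In the treated group, triclocarban 2 deviated against the other treated libraries (r from -0.701 to -0.550), which correlated with each other at -0.164 to 0.270. Among the core spliceosome and SR protein genes, controls 3 and 4 both lay above controls 1 and 2 in 28 of 52, and both below in 6, while over all 12941 genes tested they lay above in 4005 and below in 5608.

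With triclocarban, 11 of the 52 tested genes were higher and 20 were lower at an adjusted p under 0.05 (limma on log2(FPKM + 1), with the Benjamini-Hochberg method applied to 12941 genes), and 21 did not pass. Over all genes tested 42.1% were called, 11.3% higher and 30.8% lower, against 59.6%, 21.2% and 38.5% of these genes. The groups did not overlap, with all 4 triclocarban libraries above all controls, in 11 genes (10.2% of all genes) and with all below in 21 (30.0% of all genes). The median log2 change was -0.23, beside -0.19 for all genes, and became 0.03 under median-of-ratios scaling and 0.13 under quantile normalization, where the median of all genes became 0.06 and 0.14. The balance of directions also moved with the scaling: 12 of these genes were higher and 16 lower under median-of-ratios scaling (all genes: 20.5% and 24.2%), and 13 and 18 under quantile normalization (all genes: 22.5% and 22.0%). Changes were large in both directions: 53.8% of these genes moved by at least 1 log2 unit, against 35.8% of all genes. The shares over all genes were not matched for expression level, and the scale understates changes of low genes. The level of RNA per embryo and the number of embryos behind a library cannot be told apart in these values, which are relative to each library's total.

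**Figure D1:**
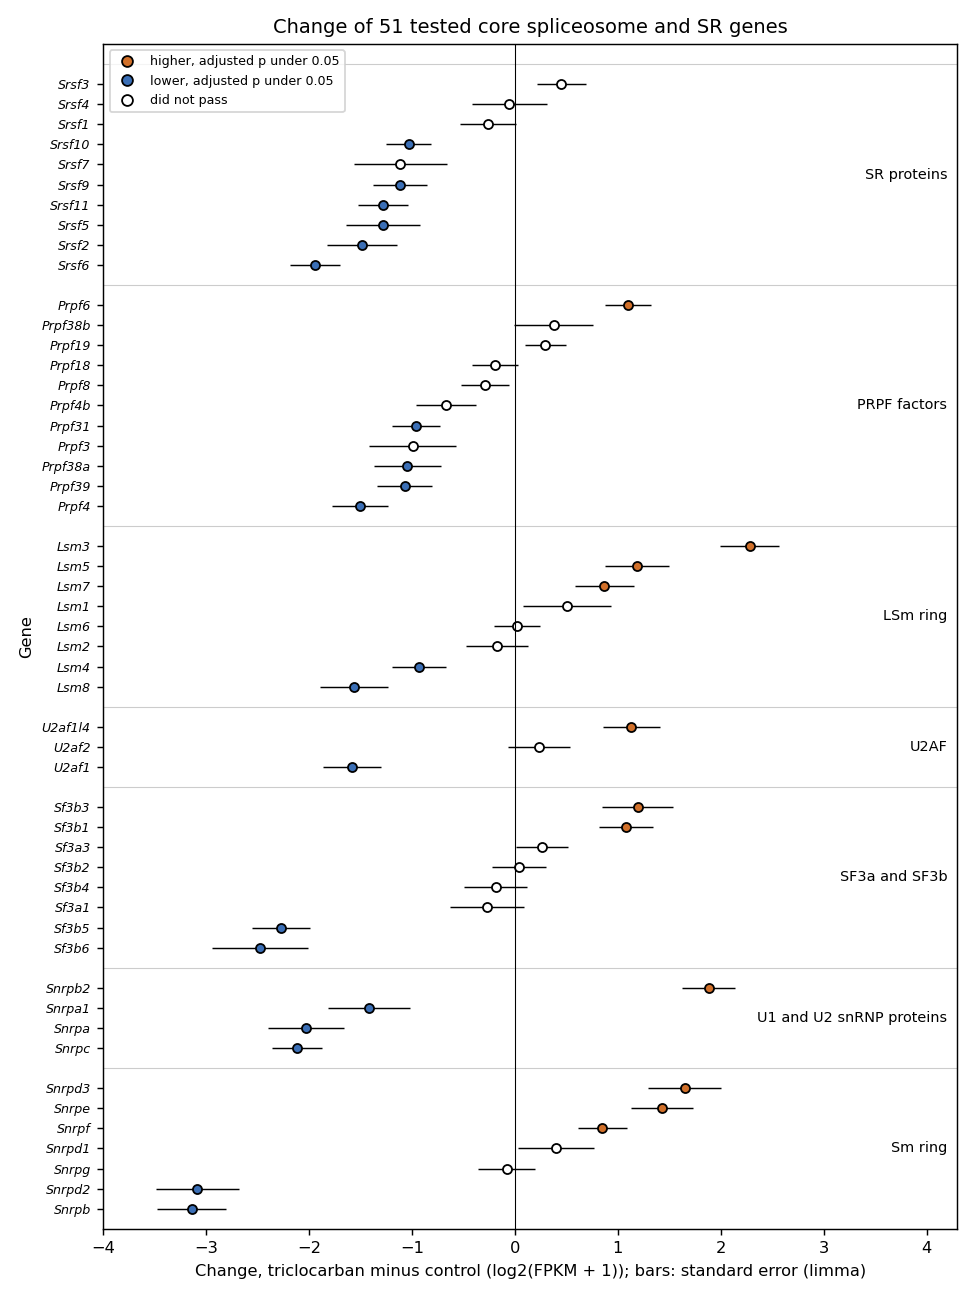
Change of 51 of the 52 tested genes (horizontal axis: triclocarban minus control on the log2(FPKM + 1) scale, bars: limma standard error), grouped by role and sorted within a group. Orange points passed the test as higher (11 genes), blue as lower (20 genes) and white did not pass (20 of the 21 such genes are drawn); every group but the SR proteins holds called genes on both sides of 0.

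The Sm proteins form the ring of 7 subunits that clasps the small nuclear RNAs of U1, U2, U4 and U5, and its genes split. Snrpd3, Snrpe and Snrpf rose, Snrpb and Snrpd2 fell, and Snrpg and Snrpd1 did not pass. Snrpb, which encodes SmB, stood at 32.2, 40.1, 94.9 and 64.8 FPKM in controls 1 to 4 and at 4.66, 4.13, 5.97 and 5.98 in triclocarban libraries 1 to 4. All treated libraries lay far below all controls, and controls 1 and 2 were the lowest controls. Its mean went from 57.98 ± 28.2 (SD, n = 4) to 5.18 ± 0.936 (SD, n = 4), a ratio of control to treated of 11.2, with a log2 change of -3.14 (SE 0.34) and an adjusted p of 7.83e-05. Snrpb (ENSMUSG00000027404.9) lies at chr2:130171414-130179403 on the minus strand of GRCm38. Snrpd2, which encodes SmD2, had 55.5, 83.5, 205 and 195 FPKM in the controls and 12.1, 10.8, 15.3 and 13.5 with triclocarban. Controls 3 and 4 were well above the other controls, yet the lowest control was still far above the highest treated library. The log2 change was -3.09 (SE 0.40, adjusted p = 0.000179), and it was -3.86 against controls 3 and 4 alone and -2.32 against controls 1 and 2 alone. Snrpd2 (ENSMUSG00000040824.2) spans chr7:19149722-19153542 on the plus strand.

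Of the rising Sm genes, Snrpe was already abundant in the controls and Snrpd3 was the lowest Sm gene in 3 of the 4. Snrpe, which encodes SmE, stood at 337, 474, 572 and 646 FPKM in the controls and at 1256, 938, 1414 and 1868 with triclocarban. No treated library reached down to the controls, and the treated values were themselves spread widely. Its log2 change was 1.43 (SE 0.30, adjusted p = 0.00299). Reads of Snrpe may be shared with the processed pseudogene Snrpert, named after it, which is listed at 98.4 to 195 FPKM in the controls and at 227 to 353 with triclocarban and was itself called higher, so the value of Snrpe is uncertain. Snrpd3, which encodes SmD3, had control values of 24.5, 33.4, 54.4 and 71.5 FPKM and treated values of 98.03, 127, 138 and 192. It rose by 1.65 (SE 0.35, adjusted p = 0.00318), with every treated library above every control although controls 3 and 4 were again the higher ones. Snrpf, which encodes SmF, had 148, 196, 171 and 178 FPKM against 291, 277, 293 and 397. The groups stayed apart, and 1 treated library, the fourth, stood well above the other 3. Its log2 change of 0.85 (SE 0.24) had an adjusted p of 0.0134, and the adjusted p was 0.0559 without triclocarban library 4. Snrpf shares exon positions with Ccdc38 on the opposite strand, which rose by 0.83. Snrpg, which encodes SmG and was the most abundant Sm gene in the controls, ranged from 1142 to 1445 FPKM there and from 798 to 1627 with triclocarban (log2 change -0.08, adjusted p = 0.839). Snrpd1, which encodes SmD1, had 109.9, 170.4, 319.6 and 359 FPKM in the controls and 228, 329, 269 and 321 with triclocarban (log2 change 0.40, adjusted p = 0.417). Its treated values lay inside the wide range of the controls, and against controls 1 and 2 alone its change was 1.05 with an adjusted p of 0.0227.

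**Figure D2:**
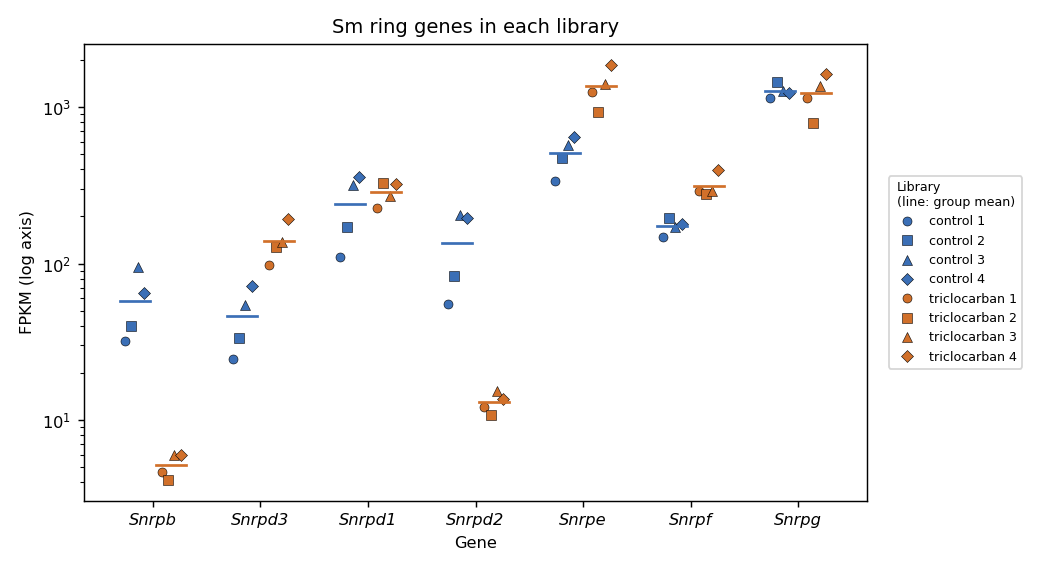
FPKM of the 7 Sm ring genes in each library (vertical log axis), with controls in blue, triclocarban in orange, 1 symbol per library number and a line at each group mean. Snrpb and Snrpd2 sit low in all treated libraries, Snrpd3, Snrpe and Snrpf sit high, and Snrpd1 and Snrpg overlap between the groups.

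The Sm ring is assembled from the pairs of SmD3 with SmB and SmD1 with SmD2 and from the trio of SmE, SmF and SmG. A ratio of 2 genes within a library does not depend on how the library is scaled. These pairs, and those of the other groups below, were chosen after their values were seen, so their ratios are a description with no test. The ratio of Snrpd3 to Snrpb was 0.574 to 1.10 in the controls and 21.04 to 32.2 with triclocarban, a difference of 5.05 in log2 between the group means (-0.33 ± 0.39 and 4.72 ± 0.30, SD, n = 4 each). The ratio of Snrpd1 to Snrpd2 was 1.56 to 2.04 without triclocarban and 17.6 to 30.3 with it. In the trio the shift was smaller: Snrpe to Snrpg went from 0.295 to 0.524 in the controls to 1.03 to 1.18, and Snrpe to Snrpf overlapped between the groups. From the lowest to the highest Sm gene the FPKM of a library spanned 19.0-fold to 46.7-fold in the controls and 227-fold to 313-fold with triclocarban. The summed FPKM of the ring genes was 2429 ± 408 without and 3364 ± 822 with triclocarban (SD, n = 4 each), with overlapping ranges.

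Of the U1 and U2 proteins named Snrp, beside the SF3 subunits below, all 4 passed the test, 3 lower and 1 higher. Snrnp70, a further U1 protein outside the naming rule, did not pass (log2 change -0.44, adjusted p = 0.241). Snrpc, a U1 subunit that steadies the contact of U1 with the start of the intron, had 101, 68.04, 95.8 and 93.7 FPKM in the controls and 19.2, 16.8, 23.3 and 19.7 with triclocarban. The lowest control was far above the highest treated library, and the log2 change was -2.12 (SE 0.24, adjusted p = 9.36e-05). Snrpa, a U1 subunit that binds a hairpin of the U1 RNA, had 61.9, 53.4, 81.8 and 71.7 FPKM against 22.1, 6.28, 19.6 and 20.2. Triclocarban library 2 was far below the other treated libraries, which were themselves all under the lowest control. Its log2 change was -2.03 (SE 0.37, adjusted p = 0.00117), and -1.64 without that library. Snrpa1 and Snrpb2 encode proteins that bind the U2 RNA as a pair, and their transcripts moved apart. Snrpb2 had 40.4, 40.2, 59.3 and 53.1 FPKM in the controls and 164, 143, 189 and 227 with triclocarban, a rise of 1.88 (SE 0.26, adjusted p = 0.000215). The 4 controls lay close together and every treated library was far above the highest of them. Snrpb2 (ENSMUSG00000008333.6) lies at chr2:143063039-143072853 on the plus strand. Snrpa1 had 26.7, 33.00, 77.2 and 95.2 FPKM against 22.3, 13.8, 19.6 and 18.7, a log2 change of -1.42 (SE 0.40, adjusted p = 0.0135). Here controls 1 and 2 were only a little above the treated libraries and controls 3 and 4 far above, and with controls 1 and 2 alone the change was -0.67 with an adjusted p of 0.0959. The call was also lost under median-of-ratios scaling (-1.12). Snrpa1 shares exon positions with Gm45213 on the same strand. The ratio of Snrpb2 to Snrpa1 was 0.558 to 1.51 in controls and 7.34 to 12.2 in libraries with triclocarban.

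Promoter sequence was looked at because these partner genes moved in opposite directions. RefSeq start sites (GRCm38.p6) were matched for 46 of the 55 genes by symbol, and 250 bases before the start were searched on both strands. The stretches shown are those of 2 genes that rose, Snrpb2 and Snrpe, and of 2 that fell, Snrpa1 and Snrpd2. Each is the part of that window nearest the start that lies in no annotated exon, written in the direction of the gene, with capitals for a match to a searched motif. That of Snrpb2 is chr2:143062919-143063038 on the plus strand, that of Snrpe chr1:133610292-133610410 on the minus strand, that of Snrpa1 chr7:66060179-66060298 on the plus strand, inside an intron of a longer annotated transcript, and that of Snrpd2 chr7:19149602-19149721 on the plus strand.
Snrpb2: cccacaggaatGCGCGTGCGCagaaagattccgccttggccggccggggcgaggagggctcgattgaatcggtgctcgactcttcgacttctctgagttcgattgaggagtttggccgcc
Snrpe: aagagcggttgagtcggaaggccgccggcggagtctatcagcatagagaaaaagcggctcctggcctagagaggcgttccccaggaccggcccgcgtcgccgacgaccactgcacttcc
Snrpa1: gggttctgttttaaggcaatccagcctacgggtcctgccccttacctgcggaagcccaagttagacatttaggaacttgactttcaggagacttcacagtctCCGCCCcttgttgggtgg
Snrpd2: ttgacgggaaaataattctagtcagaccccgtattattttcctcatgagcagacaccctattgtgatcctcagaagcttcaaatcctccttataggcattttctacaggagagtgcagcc
In these stretches the capitals mark an NRF1 motif in Snrpb2 and a GC box (GGGCGG, read here on the other strand) in Snrpa1, and none of the searched motifs was found in the stretches of Snrpe and Snrpd2. The stretch of Snrpd2 ends 116 bases before the start, and the rest of its window held both an NRF1 motif and a GC box. The whole window of Snrpb2 also held a GC box and the core of the ETS motif. That of Snrpa1 held no other searched motif, and that of Snrpe held none. Over the whole windows, the core of the ETS motif (CCGGAAG) was present in 16 of 46 genes (34.8%), against 7.05% of the 27025 promoters searched. Those promoters were taken whether or not their gene was expressed here, so these shares are not matched for expression or base content. The NRF1 motif was present in 11 (23.9% against 5.09%) and the GC box in 30 (65.2% against 32.9%). A CCAAT box was present in 17 (37.0% against 34.5%), an E-box (CACGTG) in 3 (6.52% against 6.05%) and a TATA box (TATAAA) in 4 (8.70% against 13.0%). The ETS core stood in 3 of 11 genes that rose, 4 of 17 that fell and 8 of 15 that did not pass, the NRF1 motif in 3, 5 and 2 of them and the GC box in 7, 14 and 6. A match is a description of the letters and shows no binding.

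The SF3a and SF3b complexes bind U2 to the branch site. Of 8 tested genes 2 rose, 2 fell and 4 did not pass; the median log2 change was -0.07 and was 0.18 and 0.31 under median-of-ratios and quantile scaling. Sf3b1, the large subunit that clamps around the branch site and the target of splicing inhibitors such as pladienolide, had 35.9, 41.4, 65.7 and 59.6 FPKM in the controls and 104, 120.3, 95.1 and 102 with triclocarban. All treated libraries were above all controls, and the rise was 1.08 (SE 0.26, adjusted p = 0.00642). Sf3b1 (ENSMUSG00000025982.7) lies at chr1:54985169-55027481 on the minus strand. Sf3b3, a scaffold subunit of the complex, had 10.8, 10.6, 5.68 and 3.26 FPKM against 16.7, 19.2, 13.6 and 19.3, a rise of 1.19 (SE 0.35, adjusted p = 0.016). Controls 1 and 2 were the higher controls here, and against them alone the adjusted p was 0.0934. Sf3b3 also overlaps Cog4 on the other strand, which fell by 1.55 on the log2 scale. The small subunits Sf3b5 and Sf3b6 fell, while Phf5a, a small SF3b subunit that the naming rule does not take, rose from a mean of 265 to 421 FPKM (log2 change 0.65, adjusted p = 0.0456). Sf3b5, a gene of a single exon, had 119, 107, 155 and 163 FPKM in the controls and 29.6, 17.2, 30.1 and 34.1 with triclocarban (log2 change -2.27, SE 0.28, adjusted p = 0.000141). Sf3b6, which touches the branch site adenosine, had 65.1, 89.95, 289 and 297 FPKM against 21.9, 22.7, 29.3 and 31.99 (log2 change -2.48, SE 0.47, adjusted p = 0.00149). Controls 3 and 4 were far above controls 1 and 2 for Sf3b6, and the log2 change was -1.51 with controls 1 and 2 alone and -3.44 with controls 3 and 4 alone. The ratio of Sf3b1 to Sf3b6 was 0.201 to 0.551 in controls and 3.19 to 5.31 with triclocarban, and that of Sf3b1 to Sf3b5 was 0.302 to 0.425 against 2.99 to 6.998. The other large and linking subunits stayed closer to 0: Sf3a1 at -0.27, Sf3a3 at 0.26, Sf3b2 at 0.04 and Sf3b4 at -0.19, with adjusted p from 0.428 to 0.924. Sf3a2 lay between 0.0750 and 0.630 FPKM.

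U2AF reads the end of the intron before U2 arrives. U2af1, the subunit that recognises the AG at the splice site, fell from 28.9, 39.7, 60.3 and 59.6 FPKM in the controls to 13.95, 13.2, 14.01 and 16.4 with triclocarban. The treated libraries lay close together below all controls, and the log2 change was -1.59 (SE 0.28, adjusted p = 0.00107). U2af1l4, a paralog of U2af1, had 44.1, 39.6, 21.4 and 27.8 FPKM against 74.95, 59.3, 71.4 and 80.6, a rise of 1.13 (SE 0.28, adjusted p = 0.00691). Its exons overlap those of Psenen on the opposite strand, a gamma-secretase subunit gene that rose by 2.68 (mean FPKM 106 and 442), and the strand setting is not given, so the 2 cannot be told apart where they overlap. U2af2, the subunit that binds the pyrimidine tract, was low at 2.04, 3.23, 2.69 and 4.26 FPKM in the controls and 3.04, 6.43, 2.33 and 3.76 with triclocarban (log2 change 0.23, adjusted p = 0.567). The ratio of U2af1l4 to U2af1 was 0.355 to 1.53 in controls and 4.48 to 5.37 with triclocarban.

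LSm proteins form 2 rings that share most subunits: with Lsm8 the ring holds U6 RNA in the nucleus, and with Lsm1 it takes part in the decay of mRNA in the cytoplasm. Of the 8 genes 3 rose, 2 fell and 3 did not pass, with a median log2 change of 0.26. Lsm3, shared by both rings, had 2.87, 3.17, 2.98 and 3.07 FPKM in the controls and 16.6, 12.03, 28.5 and 20.6 with triclocarban. The controls were almost equal and the lowest treated library was far above the highest of them. This was the largest rise among the 52 genes, 2.28 (SE 0.28, adjusted p = 0.000145). Lsm3 (ENSMUSG00000034192.3) lies at chr6:91515928-91522625 on the plus strand. It shares exon positions with AC161456.1 on the same strand, so reads of the shared positions cannot be told apart. Lsm5 had 6.75, 10.1, 13.7 and 13.97 FPKM against 19.00, 30.4, 20.4 and 36.7 (log2 change 1.19, SE 0.31, adjusted p = 0.00992), with no overlap. Lsm7 had 106, 138, 80.5 and 75.6 FPKM against 171, 129, 201 and 228 (log2 change 0.87, SE 0.28, adjusted p = 0.0283). Its groups overlapped, since triclocarban library 2 lay below control 2, and its call was lost when control 3, control 4, both of them, or triclocarban 1, 3 or 4 was left out, and with no filter. Lsm8, the subunit particular to the U6 ring, fell from 50.4, 89.1, 122 and 138 FPKM to 26.1, 27.5, 30.3 and 41.5, a log2 change of -1.57 (SE 0.33, adjusted p = 0.0029). Lsm4, another shared subunit, fell from 8.02, 9.82, 11.01 and 14.4 to 4.90, 4.97, 4.05 and 6.60 FPKM, a log2 change of -0.94 at an adjusted p of 0.014. The call was lost without triclocarban library 3, without controls 3 and 4, and under both other scalings. Lsm1, the subunit particular to the decay ring, had 57.5, 50.5, 27.2 and 38.6 FPKM against 76.6, 22.7, 83.8 and 87.2. Triclocarban library 2 was below all controls and the other 3 treated libraries were above all of them. The change was 0.51 with an adjusted p of 0.365, and 0.96 with an adjusted p of 0.018 without that library. Lsm2 and Lsm6 were at -0.18 and 0.02, with adjusted p of 0.672 and 0.95. The ratio of Lsm3 to Lsm8 was 0.0223 to 0.0570 in controls and 0.437 to 0.941 with triclocarban. That of Lsm1 to Lsm8, the subunits that set the rings apart, was 0.223 to 1.14 against 0.826 to 2.94 and overlapped between the groups.

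**Figure D3:**
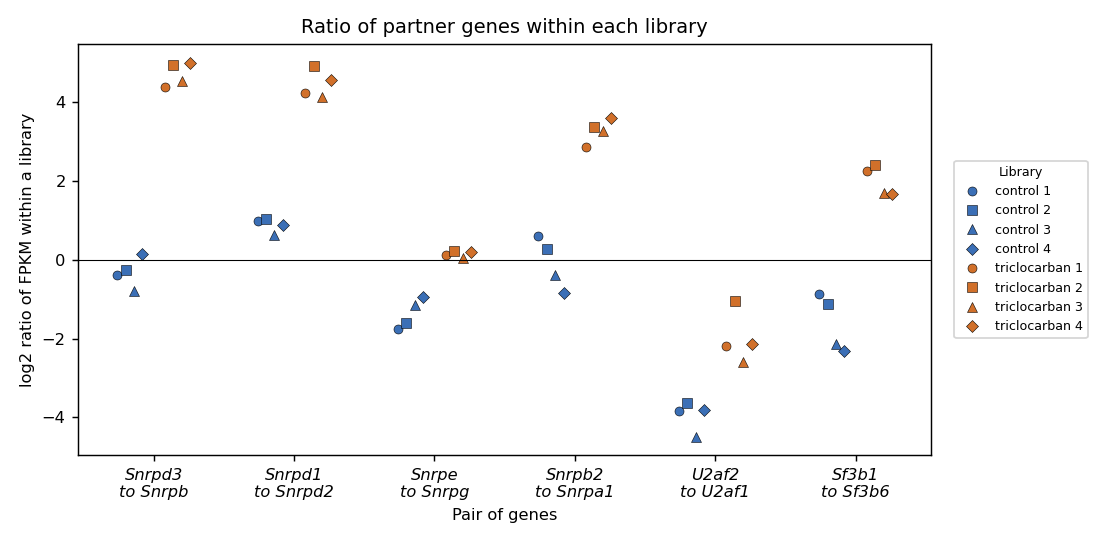
Log2 ratio of FPKM between 2 genes of the same complex within each library (vertical axis), for 6 of the 9 pairs that stood apart among 12 examined, with controls in blue and triclocarban in orange. In these 6 pairs the 4 treated libraries lie above the 4 controls, by 5.05 between the means for Snrpd3 to Snrpb and by 1.51 for Snrpe to Snrpg. The other 3 of the 12 pairs overlapped, and all were chosen after their values were seen. Every pair drawn holds a gene called higher or lower, so its separation follows in part from those calls. No share over other pairs of genes was computed.

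The PRPF genes are named after yeast mutants in pre-mRNA processing and encode mostly proteins of the tri-snRNP and of U1. Of 12 tested 1 rose, 4 fell and 7 did not pass, with a median log2 change of -0.48 that was -0.22 and -0.06 under the other scalings. Prpf6, which bridges U5 to U4 and U6, rose from 8.30, 9.87, 8.88 and 8.08 FPKM in the controls to 21.1, 21.2, 17.5 and 20.1 with triclocarban. Both groups were tight, and the change was 1.10 (SE 0.23, adjusted p = 0.00243). Prpf4, a U4 and U6 protein, fell from 8.21, 9.39, 15.8 and 14.3 to 3.70, 3.16, 3.24 and 3.55 FPKM (log2 change -1.51, SE 0.27, adjusted p = 0.00106). Prpf31, which binds U4 and is mutated in forms of retinitis pigmentosa, fell from 16.1, 16.2, 15.2 and 15.00 to 7.48, 6.03, 8.12 and 8.69 FPKM (log2 change -0.96, SE 0.23, adjusted p = 0.00596). The 4 controls of Prpf31 were almost equal, and its call was lost under quantile normalization, at -0.55. It overlaps the lower gene Gm15927 on the opposite strand (log2 change -1.06). Prpf39, which associates with U1, had a log2 change of -1.07 (mean 24.98 ± 7.46 and 11.1 ± 1.62 FPKM, adjusted p = 0.00734). It overlaps Fkbp3 on the opposite strand, which fell by 2.27 (mean FPKM 76.1 and 14.1). The strand setting is not given, so reads of Prpf39 and Fkbp3 cannot be told apart where they overlap. Prpf38a, a tri-snRNP protein needed for activation, had means of 129.6 ± 53.04 and 59.3 ± 12.9 FPKM, a log2 change of -1.05 at an adjusted p of 0.0228. Its call was lost without control 3, control 4, controls 3 and 4 together or triclocarban 4, under median-of-ratios scaling (-0.74) and with no filter. Prpf8, the protein at the heart of the catalytic centre, had 6.32, 4.97, 6.53 and 4.998 FPKM in the controls and 4.15, 4.75, 4.004 and 4.91 with triclocarban. All treated values lay under all controls but by little, and the change of -0.29 had an adjusted p of 0.334. Prpf19, a ubiquitin ligase at the core of a complex named after it, was low at 1.53, 1.15, 1.22 and 1.44 FPKM against 2.18, 1.66, 1.65 and 1.97 (log2 change 0.29, adjusted p = 0.258), again with no overlap. Prpf3, the partner of Prpf4 in the U4 and U6 particle, stood at 5.94, 6.66, 20.5 and 23.6 FPKM against 6.93, 5.95, 5.33 and 4.15. Controls 1 and 2 lay among the treated libraries and controls 3 and 4 far above them, and the adjusted p was 0.0795 with all controls and 0.000664 against controls 3 and 4 alone. The ratio of Prpf3 to Prpf4 was 0.709 to 1.65 in controls and 1.17 to 1.88 with triclocarban, with overlap. The kinase gene Prpf4b had a log2 change of -0.67 with an adjusted p of 0.0834, and Prpf38b and Prpf18 were at 0.37 and -0.19, with adjusted p of 0.461 and 0.526. Prpf40b lay between 0.0648 and 0.602 FPKM.

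With all 8 libraries on the deposited scale, no SR protein gene rose: of 10 tested 6 fell and 4 did not pass. The median log2 change was -1.12, beside -0.19 for all genes. Under median-of-ratios and quantile scaling the median was -0.83 and -0.90, 5 and 6 of the 10 genes were lower, and Srsf3 was called higher under both. Srsf6 fell most, from 15.9, 11.4, 18.9 and 15.6 FPKM in the controls to 3.25, 3.74, 3.07 and 2.88 with triclocarban. The lowest control was far above the highest treated library (log2 change -1.94, SE 0.25, adjusted p = 0.000158). Srsf6 (ENSMUSG00000016921.8) lies at chr2:162931528-162937121 on the plus strand. Srsf2, an SR protein that stays in the nucleus, fell from 55.7, 49.8, 41.2 and 72.6 to 18.3, 28.3, 9.41 and 23.7 FPKM (log2 change -1.48, SE 0.34, adjusted p = 0.00466), with the treated libraries widely spread. Srsf2 shares exon positions with Mettl23 and Mfsd11 on the opposite strand, and these were lower too, with log2 changes of -1.57 and -1.55. Srsf11 fell from 33.9, 26.9, 44.5 and 40.96 to 14.3, 14.3, 14.9 and 13.2 FPKM (log2 change -1.28, SE 0.24, adjusted p = 0.00152). Srsf10, a splicing repressor when dephosphorylated and the most abundant SR gene here, fell from 141, 148, 145 and 168 to 72.6, 78.3, 74.4 and 66.9 FPKM (log2 change -1.03, SE 0.22, adjusted p = 0.00284). Both Srsf10 and Srsf11 had treated libraries within a narrow range, well apart from the controls.

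Srsf9 fell from a mean of 14.5 ± 1.78 to 6.32 ± 1.96 FPKM (log2 change -1.12, adjusted p = 0.00541). Srsf5 had 37.8, 50.3, 107 and 113 FPKM in the controls and 22.2, 33.7, 29.1 and 27.6 with triclocarban (log2 change -1.28, adjusted p = 0.014). Controls 3 and 4 were well above controls 1 and 2, and against controls 1 and 2 alone the change was -0.63 with an adjusted p of 0.109. The call was also lost under median-of-ratios scaling (-0.98). Srsf7, an SR protein that also helps export mRNA, had the same shape more sharply, with 33.05, 26.6, 109 and 93.9 FPKM against 24.9, 15.9, 31.5 and 30.3. Control 2 lay among the treated libraries and control 1 just above them, and the change of -1.12 had an adjusted p of 0.0667 with all controls and 0.00101 against controls 3 and 4 alone. Srsf3, the smallest SR protein, had 30.2, 32.9, 48.8 and 39.4 FPKM against 48.7, 48.4, 53.7 and 54.3, with control 3 inside the treated range (log2 change 0.45, adjusted p = 0.153). Against controls 1 and 2 alone the change of Srsf3 was 0.68 (adjusted p = 0.0456), and against controls 3 and 4 alone 0.22 (adjusted p = 0.427). It was also called higher with library weights. Srsf1, one of the first SR proteins described, had 15.6, 10.01, 12.3 and 16.5 FPKM against 11.7, 10.1, 8.26 and 14.8 (log2 change -0.26, adjusted p = 0.467), and Srsf4 was at -0.05 (adjusted p = 0.921); both overlapped between the groups. Srsf12 was listed at 0 in 6 of the 8 libraries and reached 0.153 FPKM at most. Summed over the 10 tested genes, SR protein FPKM was 385 to 578 in the controls (474 ± 103, SD, n = 4) and 226 to 254 with triclocarban (240.2 ± 12.1, SD, n = 4). On the deposited scale the treated libraries were thus all below the controls. Controls 1 and 2 stood at 385 each and controls 3 and 4 at 547 and 578, so the wider spread of the controls lay mostly between these pairs.

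**Figure D4:**
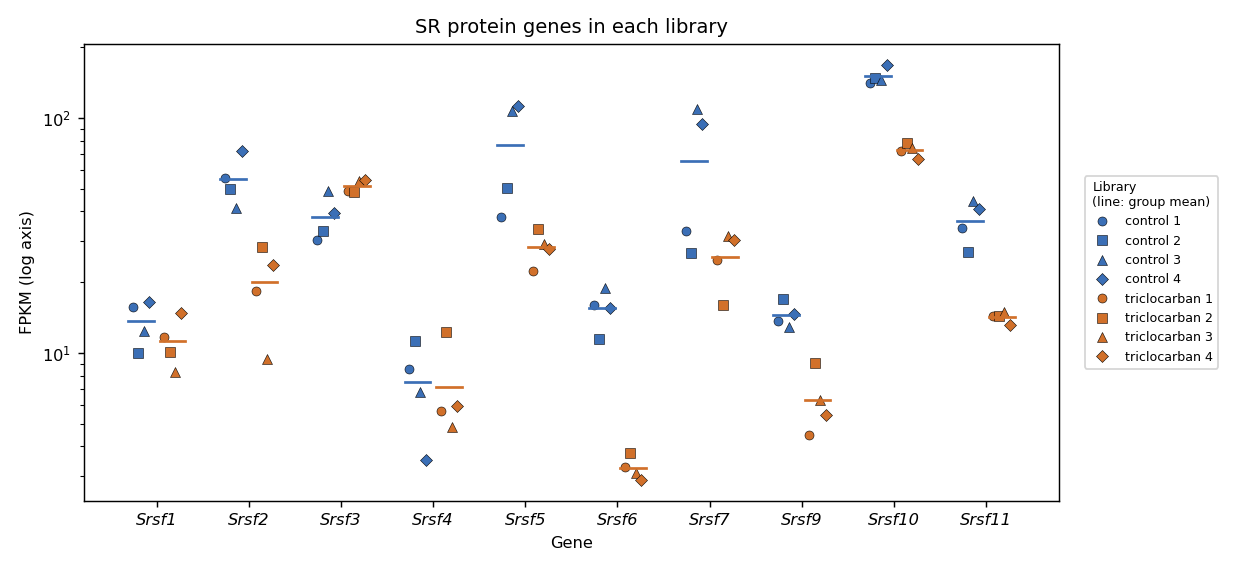
FPKM of the 10 tested SR protein genes in each library (vertical log axis), with controls in blue, triclocarban in orange, 1 symbol per library number and a line at each group mean. Srsf2, Srsf5, Srsf6, Srsf9, Srsf10 and Srsf11 lie lower in all treated libraries, and the 2 pairs of controls stand apart in Srsf5 and Srsf7.

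Gene structure, overlaps and the stability of the calls are given as a description. The median number of exons, in the annotated transcript of a gene with the most exons, was 5 for the 11 that rose, 7 for the 20 that fell and 9 for the 21 that did not pass, from 1 in Sf3b5 to 43 in Prpf8. Across the 52 genes, which are not independent replicates, the log2 change correlated with the log2 of this exon number at r = 0.12 (rho = 0.0039). With log2(mean control FPKM + 1) it correlated at r = -0.23 (rho = -0.26). The control level is itself subtracted in that change, so this correlation leans negative by construction. A total of 16 of the 55 genes share exon positions with another annotated gene, 14 of them with one on the opposite strand. Of the 31 called genes, 23 were called in the same direction in all 20 alternative settings, 8 higher and 15 lower. No called gene changed sign in any of these settings.

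Other splicing genes gave a background for the core: of 143 tested genes in 10 lists, 11 were higher (7.69%) and 49 lower (34.3%), with a median log2 change of -0.44. Among further U1, U2 and branch site factors, 3 of 17 rose and 5 fell. Puf60, which works beside U2AF, had a log2 change of -2.03 and Sugp1 one of -1.57, while Zrsr2, a relative of U2af1 used by the minor spliceosome, and Dnajc8 rose by 0.94 and 1.01 (adjusted p from 0.000141 to 0.0141). Among U4, U6 and U5 factors 2 of 16 rose (Snrnp27 by 1.79, Eftud2 by 0.79) and 3 fell (Cd2bp2 at -1.24 and Smu1 at -0.87 with the smallest adjusted p). The minor spliceosome, which removes a rare class of introns with its own small nuclear RNAs, had 7 of the 8 genes in its list lower and none higher, with a median of -1.70; Zrsr2, above, was listed with the branch site factors. Zmat5 went from 37.9 ± 19.9 to 3.40 ± 1.23 FPKM (SD, n = 4 each) and Scnm1 from 28.1 ± 11.1 to 4.90 ± 0.625 (adjusted p = 0.000205 and 0.000307), and Pdcd7, the 1 gene that did not pass, was at 0.78. In the complex around Prpf19, 1 of 19 rose (Cwc27 at 0.77) and 6 fell, Ppil1 at -2.87 and Cwc25 at -1.70 among them. Of the helicases and factors of the catalytic steps, 4 of 9 fell, Gpkow at -1.79 and Dhx8 at -1.92 among them, and none rose.

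The exon junction complex, left on mRNA where an intron was removed, was also split. Of its 9 genes, Magohb and Magoh rose, by 2.15 and 1.08, and 3 fell, Eif4a3 at -1.82 and Casc3 at -2.03 among them (adjusted p from 8.12e-05 to 0.0162). Of 8 tested SR protein kinases and the importer of SR proteins, 2 rose and 3 fell. The importer gene Tnpo3 went from 28.9 ± 16.4 to 4.38 ± 0.501 FPKM (SD, n = 4 each) and the kinase Clk4 from 28.8 ± 4.75 to 7.70 ± 2.25, while Clk2 and Srpk2 rose by 1.06 and 0.96. Of 13 SR-related proteins, Rsrc1 rose by 1.38 and 3 fell, Tra2b and Rsrc2 at -1.46 and -1.44 among them. Of 27 hnRNP proteins, which often oppose SR proteins at splice sites, 5 fell and none rose, with Syncrip at -3.30 and Hnrnpm at -2.36. The factors that build snRNPs and bring them to the nucleus had 10 of 17 genes lower, none higher and a median of -1.95. Ncbp1, the large cap-binding subunit that escorts the new small nuclear RNA, went from 51.0 ± 10.8 to 6.86 ± 0.920 FPKM, and Prmt5, which methylates Sm proteins before assembly, from 28.1 ± 8.73 to 3.93 ± 0.612 (SD, n = 4 each, adjusted p = 4.85e-05 and 8.37e-05). These shares stand beside 11.3% higher and 30.8% lower for all genes, with no test between lists. The absence of higher genes depended on the scale and on the libraries kept. Under median-of-ratios and quantile scaling the minor spliceosome had 5 and 6 genes lower and 1 higher under both. The snRNP assembly factors had 9 lower and 2 higher under both, and the hnRNP proteins 3 and 4 lower and 0 and 1 higher. The helicases and factors of the catalytic steps had 4 lower and 0 higher under both. On the deposited scale, the snRNP assembly factors had 3 higher without triclocarban 2 and 2 without controls 1 and 2. The hnRNP proteins had 1 higher without controls 1 and 2. The minor spliceosome and the helicases had none higher in either setting.

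**Figure D5:**
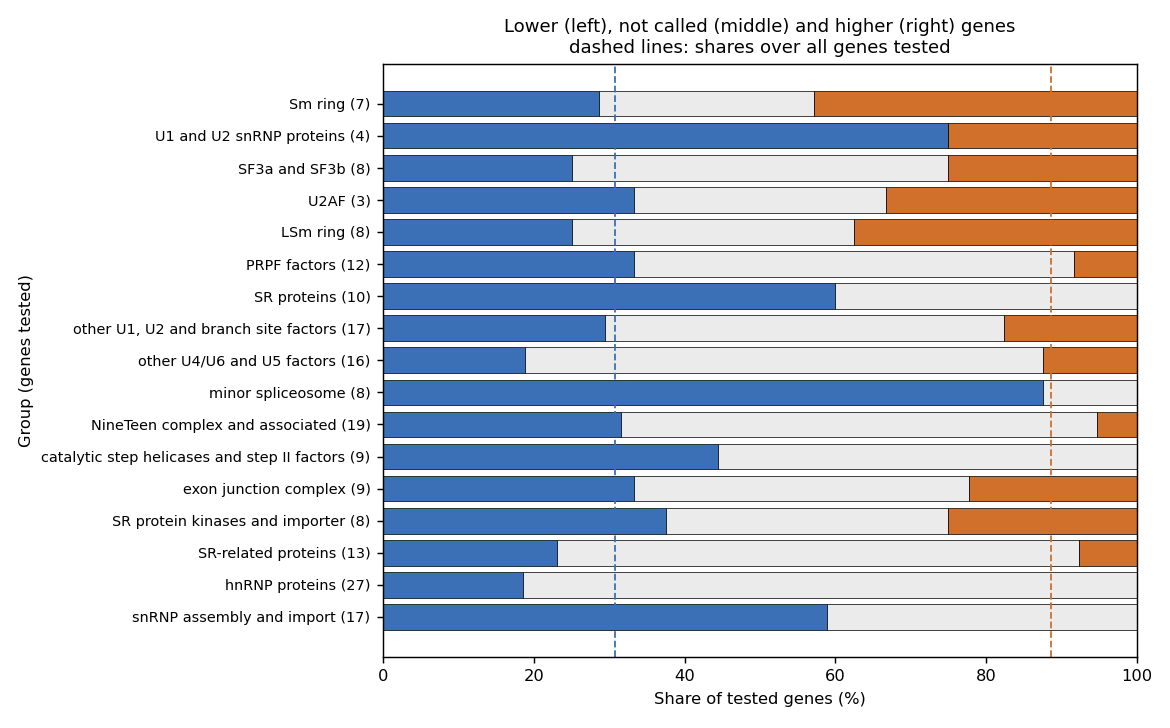
Share of tested genes that were lower (blue, from the left), not called (grey) and higher (orange, to the right) in each role group and each other splicing list, with the number tested in brackets. Dashed lines mark the shares over all genes tested, 30.8% lower and 11.3% higher. With all 8 libraries on the deposited FPKM scale, the SR proteins, minor spliceosome, helicases, hnRNP proteins and snRNP assembly factors have no higher gene. Under both other scalings all of these but the helicases (and the hnRNP proteins under median-of-ratios) hold at least 1.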

How the data were processed

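The authors deposited FPKM values, 1 column per library, for 37310 genes of 4 control and 4 triclocarban libraries of 2-cell embryos. Per the submitters' processing notes, the build was mm10 and the tools included STAR, featureCounts, StringTie and DESeq2 1.30.1, without their roles. Strand setting, annotation release and the treatment of multiply mapping reads are not given in these sources, which bears on overlapping genes and close copies. Counts could not be recovered (8.30 to 10.4% of low values within 0.02 of a whole number of fragments, 4% by chance), so no count test was run and the depth is rough.

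Identifiers were matched to GENCODE M21 (32620, 87.4%). Genes reaching 1 FPKM in 4 or more of 8 libraries were tested with limma 3.58.1 (eBayes with trend, two-sided) in R 4.3.3 on log2(FPKM + 1), a scale that understates changes of low genes, with treatment as the only term and Benjamini-Hochberg adjustment over all 12941 genes; the threshold was 0.05. The step was tested on simulated data. The members and lists were chosen with earlier results of these data known. The rule for named genes took, per role group, the 3 smallest adjusted p in each direction, the smallest change, the highest mean, genes below the filter and a short fixed list, and the 2 smallest per direction for each other list. Further core genes are named to account for the members, and 1 tested gene is counted but not reported here by name. Alternatives were other pseudocounts, filters, scalings, a replicate block, library weights and left-out libraries. The replicate numbers were not taken as pairs.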

Additional observations from a re-analysis of the deposited data

Results flagged for a closer look

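In 5 of 104 groups of 4 libraries (52 genes in either group), 1 library stood apart from the other 3 by Dixon's criterion: its gap to the nearest library, divided by the range of the group (the ratio given in brackets), was above the 95% critical value. Chance gives about 1 such group in 20. Snrpf was 397 FPKM in triclocarban library 4 and 277 to 293 in the others (0.848). Snrpa was 6.28 FPKM in triclocarban library 2 and 19.6 to 22.1 in the others (0.899). Sf3a3 was 33.9 FPKM in triclocarban library 1 and 24.1 to 24.6 in the others (0.932). Sf3b4 was 6.21 FPKM in control library 1 and 2.61 to 2.89 in the others (0.889). Lsm1 was 22.7 FPKM in triclocarban library 2 and 76.6 to 87.2 in the others (0.903). Of the 5, 2 were in triclocarban library 2, which has the lowest estimated depth, and 1 was in a control. Why these libraries differ was not tested.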

How the results depend on the processing

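The counts of core spliceosome and SR protein genes stayed within 1.5 times in all 20 alternatives: 10 to 13 higher and 16 to 23 lower over the settings, and 9 to 12 higher and 19 to 23 lower with 1 library left out. Their median log2 change was -0.31 to -0.19 with 1 library left out, 0.03 under median-of-ratios scaling and 0.13 under quantile normalization. Over all genes, 2627 were higher and 3107 lower under median-of-ratios scaling, and 2915 and 2847 under quantile normalization, against 1466 and 3981. A filter of 5 FPKM tested 8050 genes and left 2492 lower. With 1 library left out, 953 to 1860 genes were higher and 3469 to 4180 lower; the lowest counts of higher genes came without control 3 (971) or control 4 (953). Without controls 1 and 2, 2838 genes were higher, and without controls 3 and 4, 695. Of the other splicing genes, 6 to 17 were higher and 41 to 57 lower with 1 library left out (17 higher without triclocarban 2, 6 without triclocarban 4), 17 higher under median-of-ratios scaling, 17 with library weights and 5 without controls 3 and 4. The cause was not tested. With the replicate number as a block, 1544 genes were higher and 4061 lower, and 10 and 21 of the core genes, without Lsm7 and with Srsf7 lower. Same-numbered libraries deviated together at r = 0.338, 0.0530, 0.0949 and 0.104, of which 2 were over 0.1; 3 of 4 controls and 3 of 4 triclocarban libraries correlated best with their own number, a hint from the data and not from the labels. Since not every pair was over 0.1, the numbers were not read as pairs. Without controls 3 and 4, 6 of the 31 calls among the core genes were lost: Lsm4, Lsm7, Prpf38a, Sf3b3, Snrpa1 and Srsf5. FPKM holds no counts, so what depth limits in genes of low level could not be given as an interval.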
